A study of Mus musculus with 12 samples.

Results

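Transcripts of 10 genes that mark fibroblasts, pericytes, hepatic stellate cells and smooth muscle were followed in cultured murine hepatoblastoma (HB) cells. The genes were Pdgfra, Pdgfrb, Acta2, Tagln, Dcn, Lum, Des, Thy1, Cnn1 and Myl9. They were taken by symbol from a table of 45706 genes, and each had a single entry in it. The table held 12 RNA-seq libraries in 4 groups of 3. All came from BN1-Tie2-EGFP cells, a line with the genotype Cdkn2a KO that was derived from a liver tumor driven by mutant β-catenin and NRF2 and that carries EGFP under the control of the endothelial Tie2/Tek promoter, with stable transfectants pooled. UN cells were unsorted and kept in normoxia. UH cells were unsorted and exposed to 1% oxygen for 2 days. SN cells were EGFP+ cells that had been sorted after a hypoxic exposure and then expanded in normoxia. SH cells were SN cells returned to 1% oxygen for 2 days. The labels call all 12 libraries EGFP+, the unsorted ones included. The sorted cells differ from the unsorted ones in the sort, in their earlier hypoxia and in their expansion afterwards, which cannot be told apart here. The study describes the libraries of a group as independent replicas, without saying whether each was a separate culture, so p-values measure only the spread between these libraries, which may be technical.

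Pdgfra and Pdgfrb encode the receptors for platelet-derived growth factors, which drive growth and migration of mesenchymal cells. Pdgfra is best known from fibroblasts and Pdgfrb from pericytes and hepatic stellate cells, the liver's vitamin A-storing pericytes. Acta2, Tagln, Cnn1 and Myl9 encode parts or regulators of the smooth muscle contractile apparatus, and Acta2 is the usual marker of the myofibroblast that forms from a stellate cell in an injured liver. Contractile genes of this kind are controlled by serum response factor (SRF), which binds the CArG box, together with myocardin or its relatives. Dcn and Lum encode small leucine-rich proteoglycans of the collagen matrix, Des encodes the muscle intermediate filament, and Thy1 encodes a cell surface glycoprotein of fibroblasts.

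Expression is given as TPM, the transcripts of a gene in every 1000000 transcripts of a library after correction for length, which the authors obtained with Salmon. Read depth is unknown in such values, so precision is given by the spread over 3 libraries. Fold changes were fitted with limma on log2(TPM + 1), a scale that understates the change of low genes. To be called, a gene had to reach an adjusted p (Benjamini-Hochberg) under 0.05 and a log2 fold change beyond 1 in size, among 18909 genes whose mean TPM was 0.1 or more. Of the 10 markers, 9 passed that filter and Lum did not. Thy1 passed at a mean TPM of 0.134.

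Many genes that define other cell types were low in the libraries, though not all. Alb was at most 4.23 TPM and Epcam at most 0.310 TPM, although Krt18, an epithelial keratin also made by liver cells, was between 63.5 and 157 TPM. Of other liver genes, Krt8 was at 33.7 to 84.88 TPM in UN and 4.204 to 5.717 TPM in SN. Hnf4a was at 1.697 to 4.983 TPM in UN and at most 0.4288 TPM in the other groups. Afp was at 1.429 to 2.343 TPM in UN and 8.139 to 9.801 TPM in SN. It was called higher in SN against UN, by 1.86 (adjusted p = 7.74e-05, limma), and in SH against UH, by 1.4 (adjusted p = 0.000414). The label names immortalized HB cells, and the adult hepatocyte marker Alb was near 0 in them. Vim, the intermediate filament of mesenchymal and many cultured cells, was between 1072 and 6188 TPM. Of the cells that the 10 genes are named for, the pericyte genes Rgs5, Kcnj8, Abcc9 and Higd1b summed to at most 0.392 TPM, and Higd1b was listed at 0 throughout, whereas other genes of pericytes reached 66.8 TPM for Mcam, 16.9 TPM for Notch3 and 11.7 TPM for Ndufa4l2. The stellate cell genes Lrat, Reln, Ngfr and Hand2 summed to 8.04 to 13.6 TPM in UN, 3.48 to 4.16 TPM in UH, 10.2 to 15.6 TPM in SN and 0.756 to 1.59 TPM in SH. Lrat, which makes the stored form of vitamin A, was listed at 0 in all 12 libraries, while Hand2 was at 5.51 to 9.77 TPM in UN and Ngfr at 9.80 to 15.4 TPM in SN. The part of such transcripts in the levels of the 10 markers was not tested. Among leukocyte and macrophage genes, Ptprc reached 0.121 TPM, Adgre1 0.0208 TPM and Lyz2 1.87 TPM, while Csf1r was between 1.72 and 7.475 TPM. Cd68 was at 2.63 to 3.85 TPM in UN, 12.9 to 13.7 TPM in UH, 5.79 to 10.3 TPM in SN and 51.2 to 55.9 TPM in SH. Of endothelial genes other than Tek, Pecam1 reached 0.484 TPM and Vwf 1.56 TPM, both in SH. Some genes that mark other cells were nonetheless expressed, with Cd14, a monocyte gene, at 23.6 to 330.1 TPM and the mesothelial genes Wt1 and Msln at 12.8 to 118 TPM and 18.0 to 103 TPM. The summed TPM of 4 mesothelial genes was 30.8 to 37.5 in UN, 119.7 to 144 in UH, 71.9 to 77.4 in SN and 170.3 to 185 in SH, and its part in the levels of the 10 markers was not tested. Tek, the gene whose promoter drove the reporter, was between 0.0853 and 0.226 TPM in unsorted libraries and between 2.07 and 3.29 TPM in sorted ones. Cdkn2a transcripts were found in every library, at 196 to 327 TPM in UN, 66.4 to 78.7 TPM in UH, 10.4 to 16.5 TPM in SN and 7.37 to 9.32 TPM in SH, and a transcript level does not show whether a gene cut by Cas9 still encodes its protein.

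A single library, UN replicate 1, stood apart for the 10 markers before any groups were compared. Against the mean of the other two UN libraries on the log2(TPM + 1) scale it was higher by 2.34 for Acta2, 2.13 for Tagln, 2.05 for Dcn, 1.30 for Pdgfrb and 1.17 for Myl9, and lower for Pdgfra, at -1.09. It differed by -0.25 for Cnn1. Thus 5 of the 9 markers were more than 1 above and 1 was more than 1 below, whereas of all genes tested 2.36% were that far above and 2.94% that far below. Other mesenchymal genes set UN replicate 1 apart as well, in both directions. Bgn stood at 1126 TPM against 212 and 219 TPM and Tpm2 at 149 TPM against 30.0 and 26.1 TPM. Lower in that library were Fmod, at 7.24 TPM against 75.5 and 68.9 TPM, and Ogn, at 9.68 TPM against 25.25 and 26.1 TPM. Postn was lower too, at 191 TPM against 296 and 300 TPM. The summed TPM of 4 smooth muscle genes (Myh11, Actg2, Myocd and Lmod1) ran from 3.998 to 17.4 in UN, from 7.55 to 9.73 in UH, from 0.117 to 0.144 in SN and from 2.43 to 4.17 in SH, and Myh11, their defining member, was at most 0.472 TPM. The part of smooth muscle transcripts in the levels of the 10 markers was not tested. Values against UN are given also without UN replicate 1 where that changed a call or moved the fold by over 1.5 times.

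**Figure D1:**
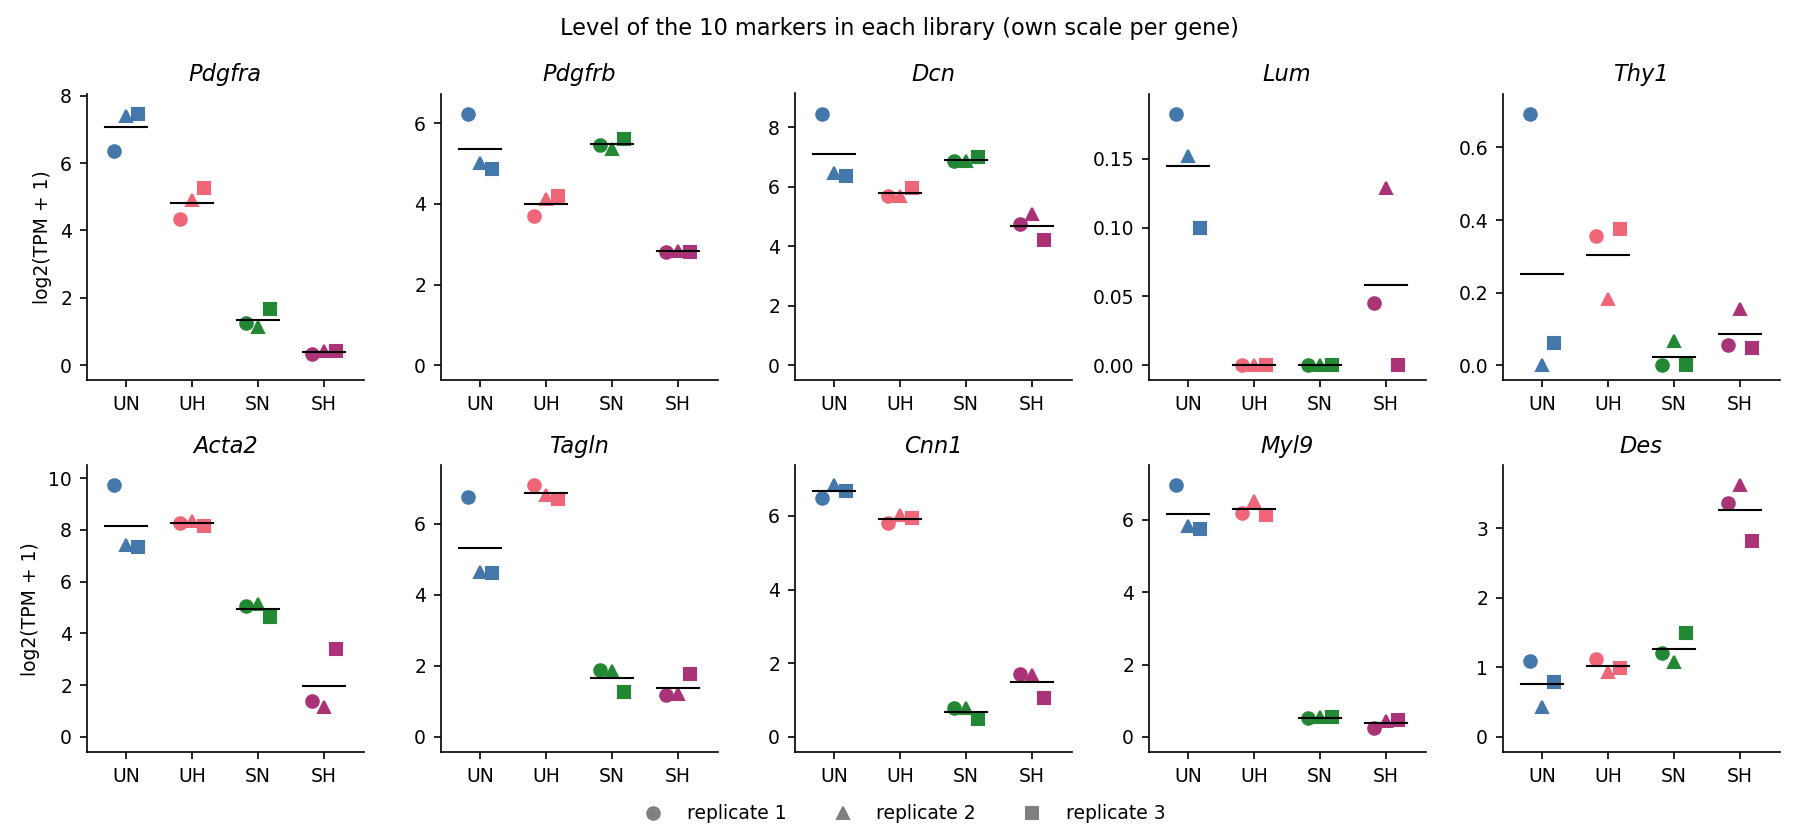
Level of each of the 10 markers as log2(TPM + 1) in the 12 libraries, 1 panel per gene with its own axis, where points are libraries, shapes are replicate numbers and bars are group means. Pdgfra, Acta2, Tagln, Cnn1 and Myl9 sit low in both sorted groups, Pdgfrb and Dcn sit low in UH and SH, Des is high in SH only, and the circle of UN replicate 1 lies more than 1 above the mean of the other UN libraries for 5 markers.

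The markers did not move as a block. Cnn1, Pdgfra, Myl9, Tagln and Acta2 were lower in sorted than in unsorted cells, in normoxia and in hypoxia alike. Pdgfrb was called lower in SH than in UH and was not called between SN and UN. Hypoxia went with lower Pdgfrb and Dcn in both cell populations and with higher Des in sorted cells. In unsorted cells the calls of Pdgfrb and Dcn were lost without UN replicate 1, at -0.94 and -0.64. Between SN and UN, 5 of the 9 markers tested were called lower and 0 higher, where 7.57% of all genes tested were called lower and 3.2% higher. Pdgfrb and Des had fitted values above 0 there in limma, and 0 markers were above 0 at an unadjusted p under 0.05. Between SH and UH, 6 of 9 were called lower and 1 higher, against 5.35% and 7.65% of all genes. Between UH and UN, 3 of 9 were called lower and 1 higher, against 11.8% and 5.46% of all genes. Without UN replicate 1 these counts were 1 and 1, against 13.9% and 5.88% of all genes. Between SH and SN, 3 of 9 were called lower and 1 higher, against 5% and 7.47% of all genes. The median log2 fold change of the 9 markers was -3.20 in SN against UN and -4.44 in SH against UH, where that of all genes was -0.06 and 0.17. It was 0.05 in UH against UN and -0.28 in SH against SN, where that of all genes was -0.19 and 0.03. The comparisons share libraries, UN in 2 of them and each other group in 2, so they are not independent of each other.

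**Figure D2:**
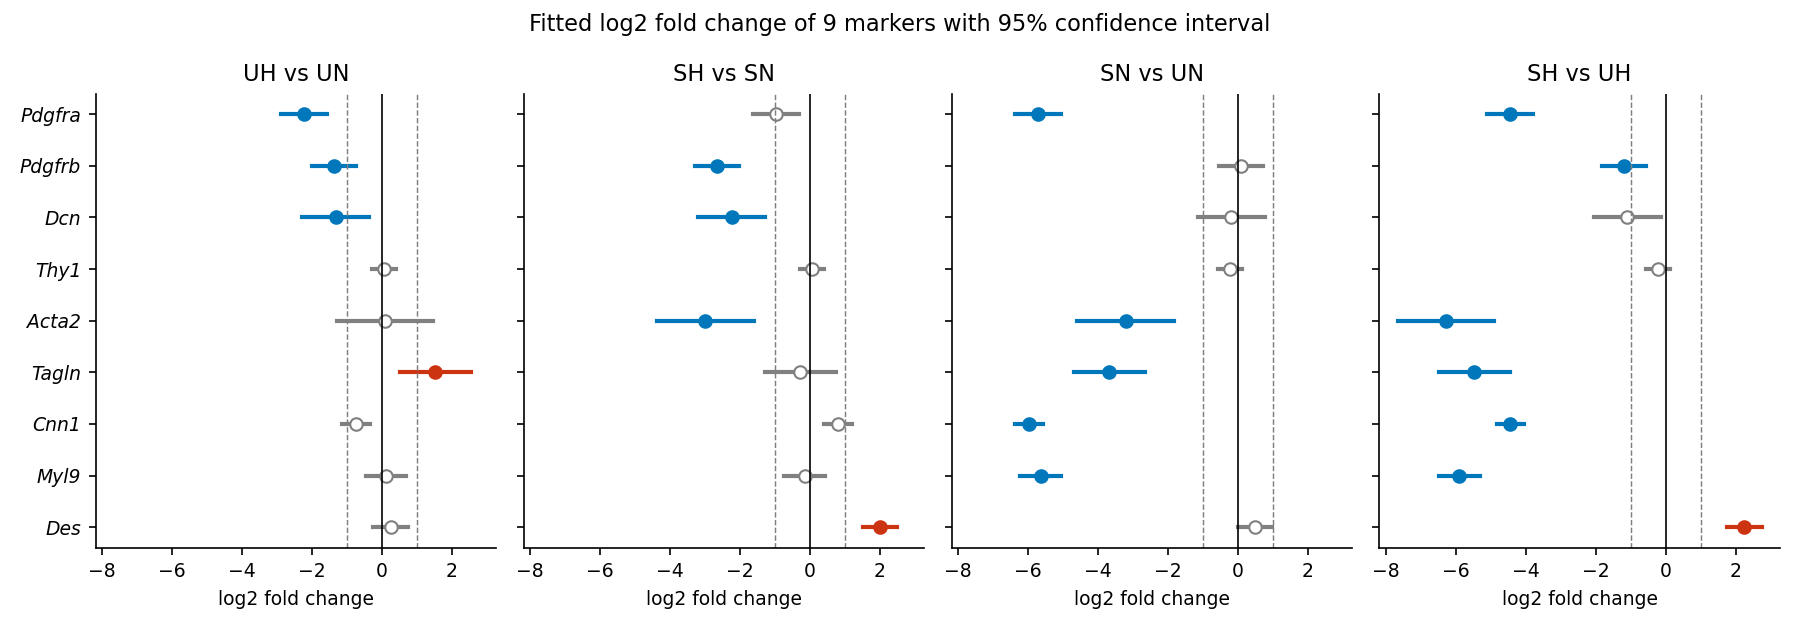
Fitted log2 fold change (limma, log2(TPM + 1)) of the 9 markers tested in 4 comparisons, with 95% confidence intervals as lines, filled points for called genes (blue lower, red higher) and dashed lines at a log2 fold change of 1 in either direction. In SN against UN 5 markers lie between -3.21 (Acta2) and -5.97 (Cnn1) and the other 4 between -0.23 (Thy1) and 0.49 (Des), while Pdgfrb and Dcn lie below -1 in both hypoxia comparisons.

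Cnn1 and Myl9 were expressed in unsorted cells and were below 3 TPM in every sorted library. Cnn1, which encodes calponin 1, an actin-binding protein that restrains myosin, was at 89.1, 113 and 100.2 TPM in UN and at 54.7, 64.4 and 59.9 TPM in UH. It was at 0.729, 0.735 and 0.395 TPM in SN and at 2.28, 2.19 and 1.09 TPM in SH. All 6 unsorted libraries lay above all 6 sorted ones, and no 2 of the 4 groups overlapped. The mean of UN was 162.5 times that of SN, and the log2 fold change was -5.97 (SE 0.18, adjusted p = 1.75e-09, limma). In SH against UH it was -4.44 (SE 0.18, adjusted p = 1.2e-08). Hypoxia went with opposite values in the 2 populations, -0.74 in unsorted cells (SE 0.18, adjusted p = 0.00542) and 0.80 in sorted ones (SE 0.18, adjusted p = 0.00431), each short of the fold needed for a call. In sorted cells it was called without SH replicate 3, at 1.00, and with a pseudocount of 0.1, at 1.41. The difference between the 2 responses was 1.54 (SE 0.26, adjusted p = 0.00196). Cnn1 differed little between UN replicate 1 and the rest of its group, and without that library the SN against UN value was -6.06.

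Myl9, the regulatory light chain of smooth muscle and nonmuscle myosin, was at 123, 55.5 and 52.5 TPM in UN and at 72.6, 90.3 and 69.8 TPM in UH. It was at 0.429, 0.454 and 0.467 TPM in SN and at 0.189, 0.367 and 0.375 TPM in SH. Unsorted and sorted libraries were again fully separate, while UN and UH overlapped through UN replicate 1. The UN mean was 171 times the SN mean, and 119.9 times without UN replicate 1. The log2 fold change was -5.64 in SN against UN (SE 0.26, adjusted p = 3.94e-08, limma) and -5.90 in SH against UH (SE 0.26, adjusted p = 2.76e-08). In hypoxia Myl9 differed by 0.11 in unsorted cells (95% interval -0.46 to 0.69, adjusted p = 0.763) and by -0.15 in sorted cells (95% interval -0.73 to 0.43, adjusted p = 0.704). Without UN replicate 1 the unsorted value was 0.51 (adjusted p = 0.0125), still short of the fold needed for a call.

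Since Cnn1 and Myl9 dropped together in sorted cells, the sequence before their start sites is shown, taken from RefSeq promoters of the mouse build GRCm38.p6 and limited to the stretch outside every annotated exon. Both genes lie on the plus strand, Myl9 on chromosome 2 (gene at 156775420 to 156781658) and Cnn1 on chromosome 9 (gene at 22099216 to 22109630). The Myl9 stretch is chr2:156775214-156775419 and the Cnn1 stretch is chr9:22099003-22099215, each written 5′ to 3′. Positions are counted from the RefSeq start, which differs from the gene coordinates above. From it the Myl9 stretch ends at -45 and the Cnn1 stretch at -38. In the Myl9 stretch capitals mark a CArG box that begins 161 bases before the RefSeq start and reads as a CArG box on both strands. In the Cnn1 stretch capitals mark CACGC, which is GCGTG on the other strand and begins 71 bases before the RefSeq start.
Myl9: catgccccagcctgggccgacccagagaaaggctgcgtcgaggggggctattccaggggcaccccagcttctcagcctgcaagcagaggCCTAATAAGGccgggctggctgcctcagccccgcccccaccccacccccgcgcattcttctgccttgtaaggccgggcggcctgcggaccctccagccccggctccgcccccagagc
Cnn1: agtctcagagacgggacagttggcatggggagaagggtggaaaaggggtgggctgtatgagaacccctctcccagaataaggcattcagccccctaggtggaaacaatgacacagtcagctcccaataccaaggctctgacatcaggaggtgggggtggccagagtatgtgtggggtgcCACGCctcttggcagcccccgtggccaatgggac

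Promoters of 300 bases (250 before and 50 after the RefSeq start) were found for 5 of the 10 markers, namely Acta2, Cnn1, Myl9, Des and Pdgfra. They were searched on both strands for the CArG box, for GGAATG, which is the core bound by TEAD factors, and for the TATA box as TATAAA. The core of the hypoxia response element was searched as ACGTG and, in its other common form, as GCGTG. The CArG box was found in 1 of the 5, that of Myl9, and in 1.63% of the 32851 mouse promoters. GCGTG was found in 1, that of Cnn1, and in 32.4% of all promoters. Cnn1 also held ACGTG, which 19.6% of promoters did, beginning 4 bases after the RefSeq start. GGAATG was found in 1, that of Acta2, 146 bases before the RefSeq start and inside an exon of the GENCODE annotation, and in 14.7% of all promoters. TATAAA was in none of the 5 and in 13.6% of all. No searched motif was in the Des or Pdgfra windows. A match describes letters in this window only, and so does the lack of one. For Acta2, only 33 of the 250 bases before the RefSeq start lay before its gene in the GENCODE annotation. The Acta2 window thus lay mostly within the gene, and whether a CArG box or TATA box lies further upstream was not tested.

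Acta2 and Tagln also fell in sorted cells, from levels that varied more. Acta2, smooth muscle α-actin, was at 845, 172 and 162 TPM in UN and at 305, 327 and 284 TPM in UH. It was at 32.8, 34.7 and 24.2 TPM in SN and at 1.59, 1.25 and 9.43 TPM in SH. Both unsorted groups lay above SN, and SN lay above SH, where replicate 3 was higher than the other two. Acta2 was lower in SN than in UN by -3.21 log2 units (SE 0.63, adjusted p = 0.00223, limma; -2.43 without UN replicate 1) and in SH than in UH by -6.28 (SE 0.63, adjusted p = 1.4e-05). In sorted cells hypoxia went with a further fall of -2.99 (SE 0.63, adjusted p = 0.0027), which was -3.69 without SH replicate 3.

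The response of Acta2 in unsorted cells turned on UN replicate 1. With all libraries UH differed from UN by 0.09 log2 units (95% interval -1.29 to 1.47, adjusted p = 0.933). Without UN replicate 1 the value was 0.87 (adjusted p = 0.197), and every UH library lay above the remaining 2 UN libraries. The mean UH level was then 1.83 times theirs. Reads of Acta2 may be shared with other actin genes of near-identical coding sequence. Actb and Actg1 were between 1762 and 4307 TPM in every library, so that the SH values of Acta2 are uncertain at this low level. The smooth muscle paralog Actg2 was between 1.02 and 1.90 TPM in UN and at most 0.0534 TPM in SN. Skeletal and cardiac actin, Acta1 and Actc1, were at most 0.227 and 0.0711 TPM.

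Tagln, which encodes the actin-bundling protein transgelin, was the single marker called higher in hypoxic unsorted cells. It was at 107, 23.8 and 23.4 TPM in UN and at 135, 110.4 and 103.7 TPM in UH. It was at 2.67, 2.63 and 1.39 TPM in SN and at 1.29, 1.29 and 2.41 TPM in SH. UN and UH overlapped because UN replicate 1 was within the range of UH, and SN and SH overlapped as well. The rise in UH was 1.53 log2 units (SE 0.46, adjusted p = 0.0176, limma), and without UN replicate 1 it was 2.24 (SE 0.23, adjusted p = 2.7e-05). The call was lost when UN replicate 2, UN replicate 3 or UH replicate 1 was left out, with an adjusted p of 0.0806, 0.0812 and 0.0586, and when the UN and UH libraries were fitted alone, with an adjusted p of 0.0997. In SN against UN the value was -3.67 (SE 0.46, adjusted p = 0.000113), or -2.96 without UN replicate 1, and in SH against UH it was -5.48 (SE 0.46, adjusted p = 3.75e-06). In sorted cells hypoxia gave -0.28 (95% interval -1.29 to 0.74, adjusted p = 0.685). Tagln (chromosome 9, 45929619 to 45936058, minus strand) overlaps Pcsk7 in the annotation, and how shared reads were divided was not tested.

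Des differed in its order from Acta2, Tagln, Cnn1 and Myl9, as its mean was lowest in UN and highest in SH. Desmin links the contractile filaments of muscle cells and also marks rodent stellate cells. Des was at 1.12, 0.347 and 0.723 TPM in UN and at 1.18, 0.909 and 0.997 TPM in UH. It was at 1.31, 1.11 and 1.81 TPM in SN and at 9.33, 11.3 and 6.06 TPM in SH. The SH libraries lay above the other 9, which overlapped between UN, UH and SN. Des rose by 2.01 log2 units in SH against SN (SE 0.23, adjusted p = 3.54e-05, limma) and by 2.25 in SH against UH (SE 0.23, adjusted p = 1.35e-05), and the ratio of the SH to the SN mean was 6.31. In UH against UN the value was 0.25 (95% interval -0.24 to 0.74, adjusted p = 0.397). The 2 hypoxia responses differed by 1.76 (SE 0.32, adjusted p = 0.00301). The skeletal muscle genes Myod1, Myog, Myf5 and Pax7 summed to 0.107 to 0.397 TPM in SH and to at most 0.0446 TPM in the other groups, and Myf5 was listed at 0 throughout. The part of skeletal muscle transcripts in the level of Des was not tested.

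Of the 2 receptors for platelet-derived growth factors, Pdgfra was low in both sorted groups, while Pdgfrb in SN was within the range of UN and was low in SH. Pdgfra was at 80.4, 168 and 176 TPM in UN and at 19.1, 28.7 and 37.5 TPM in UH. It was at 1.38, 1.21 and 2.17 TPM in SN and at 0.259, 0.336 and 0.345 TPM in SH. The 4 groups followed one another with no overlap. The UN mean was 89.2 times that of SN, with a log2 fold change of -5.72 (SE 0.30, adjusted p = 1.07e-07, limma), and in SH against UH the fold change was -4.44 (SE 0.30, adjusted p = 6.54e-07). In a bulk sample fewer cells that carry a transcript and less of it per cell cannot be told apart. In unsorted cells hypoxia went with a fall of -2.24 (SE 0.30, adjusted p = 8.76e-05). In sorted cells the value was -0.96 (SE 0.30, adjusted p = 0.0238), just short of a call. It was called at -1.99 when the pseudocount was 0.1, as the pseudocount of 1 compresses values this low, and likewise with quantile normalization, at -1.26, and without SN replicate 1, at -1.01, or SN replicate 2, at -1.07. Pdgfra lies on chromosome 5 at 75152292 to 75198215 and overlaps the microRNA gene Mir7025.

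Pdgfrb was at 74.6, 31.1 and 28.4 TPM in UN and at 12.02, 16.3 and 17.3 TPM in UH. It was at 43.3, 40.3 and 47.7 TPM in SN and at 5.98, 6.19 and 6.06 TPM in SH. Both hypoxic groups lay below both normoxic groups, SH lay below UH, and SN fell within the range of UN. Pdgfrb was lower by -1.37 log2 units in UH against UN (SE 0.29, adjusted p = 0.00205, limma) and by -2.66 in SH against SN (SE 0.29, adjusted p = 2.73e-05). SN and UN differed by 0.11 (95% interval -0.52 to 0.73, adjusted p = 0.829). SH was below UH by -1.18 (SE 0.29, adjusted p = 0.00619). Without UN replicate 1 the UH against UN value was -0.94 (adjusted p = 0.000429), which is short of the fold needed for a call, and the SN against UN value was 0.54 (adjusted p = 0.0153).

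Of the 4 genes tested for the ligands of these receptors, 0 were called in UH against UN or in SH against SN by limma, although 3 and 1 had an unadjusted p under 0.05. Pdgfa, whose product binds Pdgfra, had fitted values of 0.90 and 0.91 in those comparisons, and without UN replicate 1 it was called in UH against UN, at 1.03. Pdgfb, which encodes the ligand that binds both receptors, was higher in SN than in UN by 1.88 (SE 0.14, adjusted p = 1.85e-06), at 64.1 to 75.5 TPM against 16.5 to 22.7 TPM. Pdgfd, a ligand of Pdgfrb, was lower in SN than in UN by -1.76 (SE 0.28, adjusted p = 0.00054) and in SH than in UH by -2.33 (SE 0.28, adjusted p = 5.27e-05).

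Decorin, the product of Dcn, binds collagen fibrils and growth factors, and its transcript followed Pdgfrb. Dcn was at 349, 86.2 and 81.2 TPM in UN and at 49.9, 50.4 and 61.0 TPM in UH. It was at 116, 116 and 126 TPM in SN and at 26.0, 32.5 and 17.6 TPM in SH. Hypoxic libraries lay below the normoxic libraries of their own population, and SN lay between UN replicate 1 and the other two UN libraries. In sorted cells the fall was -2.23 log2 units (SE 0.44, adjusted p = 0.0017, limma). In unsorted cells it was -1.32 (SE 0.44, adjusted p = 0.0274), and this call was lost without UN replicate 1, at -0.64 with an adjusted p of 0.0239, and without UH replicate 1 or 2, at an adjusted p of 0.0732 and 0.074. It was also lost in 4 other refits, at an adjusted p of 0.0559 without a filter on low values, 0.0763 with quantile normalization, 0.111 with median-of-ratios scaling and 0.129 when UN and UH were fitted alone. SN differed from UN by -0.18 (95% interval -1.14 to 0.78, adjusted p = 0.807), and by 0.50 without UN replicate 1 (adjusted p = 0.0769). SH differed from UH by -1.09 (SE 0.44, adjusted p = 0.0651), which was not a call. It became one without UN replicate 1, with an adjusted p of 0.000773, and also with median-of-ratios scaling, at -1.31 with an adjusted p of 0.0372, with quantile normalization, with an adjusted p of 0.0427, and when SH and UH were fitted alone, with an adjusted p of 0.0142.

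Lum and Thy1 were at or near 0 in all groups. Lumican, encoded by Lum (chromosome 10, 97565128 to 97572703), helps to space collagen fibrils. Lum was at 0.135, 0.111 and 0.0717 TPM in UN and was listed at 0 in all UH and SN libraries. It was at 0.0321 and 0.0933 TPM in 2 SH libraries and was listed at 0 in the third, so no test or fold was made. Its neighbor on the chromosome, Dcn (97479609 to 97518143), was thus expressed where Lum was hardly detected. Thy1 was at 0.617, 0 and 0.0435 TPM in UN, at 0.279, 0.135 and 0.297 TPM in UH, at 0, 0.0467 and 0 TPM in SN and at 0.0389, 0.113 and 0.0331 TPM in SH. UH lay above SH with no overlap, while the fitted difference was -0.22 on the log2(TPM + 1) scale (95% interval -0.56 to 0.12, adjusted p = 0.282, limma), and the other 3 comparisons gave values between -0.23 and 0.06.

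Relatives of Dcn and Lum in the small leucine-rich family divided in the same data. Of 8 such genes, 5 were tested. All 5 were called lower in SN against UN, against 7.57% of all genes. In UH against UN 4 were called lower and 1 higher, against 11.8% and 5.46% of all genes. Bgn, which encodes biglycan, was the one that rose, by 1.90 (SE 0.48, adjusted p = 0.00618, limma; 2.70 without UN replicate 1), and it was lower by -4.33 in SN against UN (SE 0.48, adjusted p = 4.04e-05; -3.53 without UN replicate 1) and by -7.10 in SH against UH (SE 0.48, adjusted p = 5.99e-07). Fmod and Ogn, for fibromodulin and osteoglycin, fell in hypoxic unsorted cells by -3.38 (SE 0.64, adjusted p = 0.00102) and -2.92 (SE 0.29, adjusted p = 9.79e-06). Fmod was at 7.24 TPM in UN replicate 1 against 75.5 and 68.9 TPM in the other two, and its value without that library was -4.43. In SH against SN 0 of 5 were called by limma, where 5% of all genes were called lower and 7.47% higher. Their values lay between -0.87 and -0.07, with an unadjusted p under 0.05 for 2 of them.

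Of 16 further contractile genes tested, SN against UN gave 3 calls, all lower, where 7.57% of all genes were called lower. SH against UH gave 1 higher and 3 lower, where 7.65% and 5.35% of all genes were. Tpm2, a tropomyosin that lies along the actin filament, fell by -5.38 in SN against UN (SE 0.49, adjusted p = 9.32e-06, limma; -4.59 without UN replicate 1) and by -7.27 in SH against UH (SE 0.49, adjusted p = 6.54e-07). Like Tagln it rose in UH against UN, by 2.96 (SE 0.49, adjusted p = 0.00043; 3.75 without UN replicate 1). Lmod1, an actin nucleator of smooth muscle, fell by -2.51 in SN against UN (SE 0.47, adjusted p = 0.00155, limma; -1.78 without UN replicate 1). It rose by 1.77 in SH against SN (SE 0.47, adjusted p = 0.01). It was at 2.34 to 15.5 TPM in UN, 0.0157 to 0.088 TPM in SN and 1.80 to 3.455 TPM in SH. Actg2 fell by -1.27 in SN against UN (SE 0.16, adjusted p = 0.0001). The pseudocount of 1 compresses the low SN values of Lmod1 and Actg2. Smtn, for smoothelin, rose in both hypoxia comparisons, by 1.60 in unsorted cells (SE 0.20, adjusted p = 5.82e-05) and by 2.23 in sorted ones (SE 0.20, adjusted p = 8.14e-06), and like Des it had its lowest mean in UN, at 59.2 TPM, and its highest in SH, at 364.5 TPM. Calls among the 16 in UH against UN were 3 higher and 2 lower, where 5.46% and 11.8% of all genes were. Without UN replicate 1 they were 6 and 1, where 5.88% and 13.9% of all genes were. Those in SH against SN were 3 higher and 1 lower, where 7.47% and 5% of all genes were. The median log2 fold change of the 16 was -0.22 in SN against UN and -0.60 in SH against UH, that of all genes being -0.06 and 0.17. Values of the 16 ran from -5.38 to 0.36 and from -7.27 to 1.11 in the 2 comparisons. Those of Acta2, Tagln, Cnn1 and Myl9 ran from -5.97 to -3.21 and from -6.28 to -4.44.

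The regulators of such genes showed no called change. Of Srf, Myocd, Mkl1 and Mkl2, for SRF, myocardin and both myocardin-related factors, 3 were tested and 0 were called in any of the 4 comparisons by limma. At an unadjusted p under 0.05 there were 2 in UH against UN, 1 in SH against SN, 1 in SN against UN and 0 in SH against UH, all with values below 0 and between -0.61 and -0.34. Srf was between 21.2 and 38.8 TPM and Mkl1 between 23.3 and 47.8 TPM over the 12 libraries. Myocd was at most 0.229 TPM.

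Of 16 other fibroblast and stellate genes tested, SN against UN gave 2 higher and 6 lower calls, where 3.2% and 7.57% of all genes were called. SH against UH gave 0 higher and 5 lower by limma, where 7.65% and 5.35% of all genes were, and 2 of the 16 were above 0 at an unadjusted p under 0.05. Their median was -0.56 and -0.70 in the 2 comparisons. Postn, for the matrix protein periostin, fell by -5.57 (SE 0.23, adjusted p = 1.42e-08, limma) and -5.29 (SE 0.23, adjusted p = 2.63e-08) in the same comparisons. Pdpn, for podoplanin, was at 2.53 to 24.0 TPM in UN and was listed at 0 in every SN library. S100a4, a calcium-binding protein that is also known as fibroblast-specific protein, rose by 2.46 in SN against UN (SE 0.39, adjusted p = 0.000563, limma). It fell by -1.85 in SH against SN (SE 0.39, adjusted p = 0.00275) and differed by 0.29 in SH against UH (adjusted p = 0.584). In UH against UN 3 of the 16 were called higher and 1 lower, where 5.46% and 11.8% of all genes were. In SH against SN 2 were called higher and 2 lower, where 7.47% and 5% of all genes were. Vim rose in hypoxia by 2.08 in unsorted cells (SE 0.11, adjusted p = 7.41e-08, limma) and by 1.44 in sorted cells (SE 0.11, adjusted p = 2e-06). Ngfr fell by -1.64 in unsorted cells (SE 0.21, adjusted p = 6.87e-05) and by -2.73 in sorted cells (SE 0.21, adjusted p = 2.73e-06). Of 5 pericyte genes tested, SN against UN gave 2 calls and SH against UH 2, all lower. Of all genes 7.57% and 5.35% were called lower there. UH against UN gave 1 higher and 1 lower, where 5.46% and 11.8% of all genes were. SH against SN gave 0 calls by limma, where 7.47% and 5% of all genes were called higher and lower, and 3 had an unadjusted p under 0.05. Rgs5, at most 0.334 TPM, was called in none of the 4 comparisons. Notch3, a receptor of vascular mural cells, fell by -2.93 in SN against UN (SE 0.24, adjusted p = 3.98e-06) and by -3.08 in SH against UH (SE 0.24, adjusted p = 2.06e-06). Ndufa4l2 rose by 3.38 in UH against UN (SE 0.13, adjusted p = 1.41e-08, limma). Its value in SH against SN was 0.59, from a mean of 0.0247 TPM in SN to 0.539 TPM in SH. The pseudocount of 1 compresses levels this low, so these 2 values do not compare the relative rises. Mcam, an adhesion molecule of mural and endothelial cells, fell by -2.03 in SN against UN (SE 0.31, adjusted p = 0.000447). It also fell by -1.31 in UH against UN (SE 0.31, adjusted p = 0.00482).

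**Figure D3:**
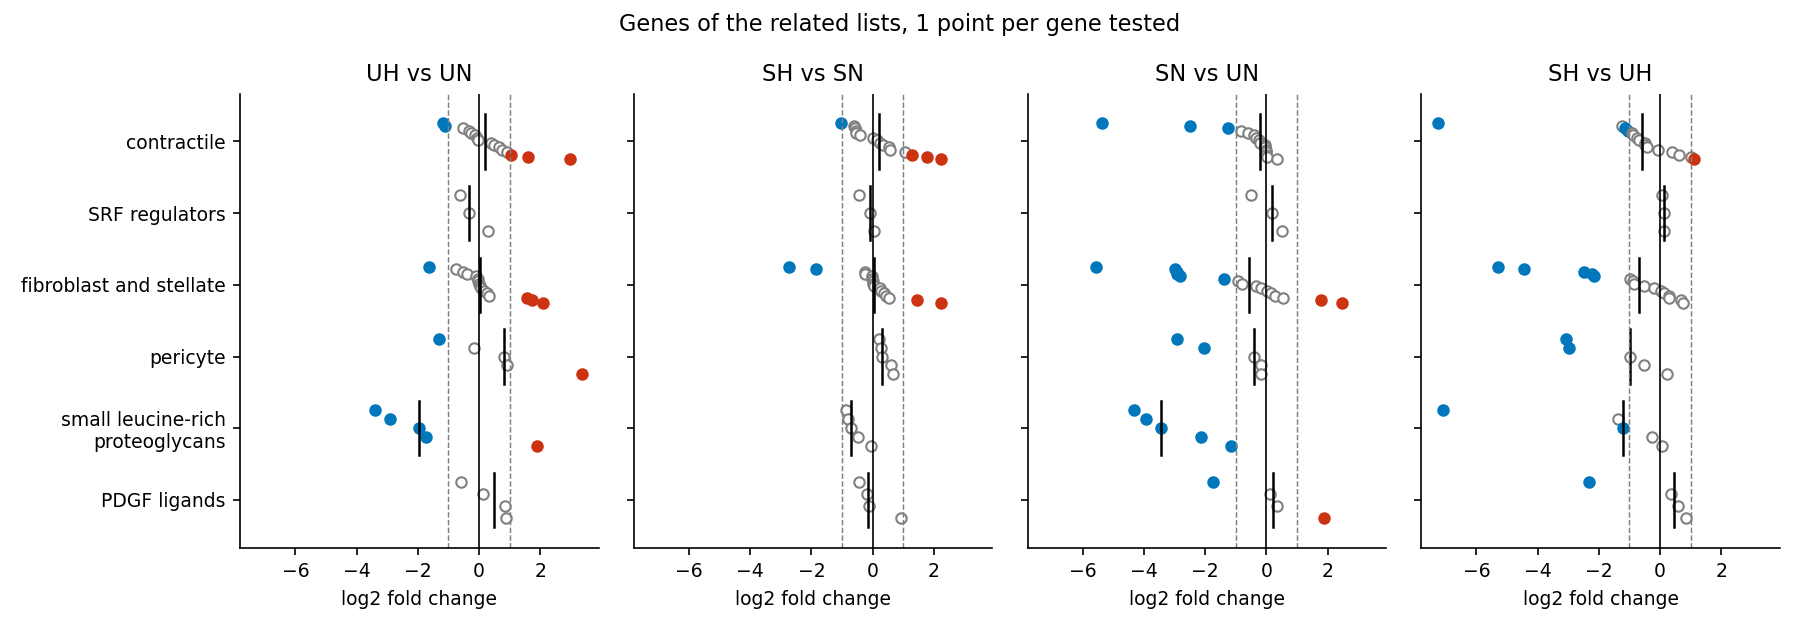
Fitted log2 fold change (limma) of every tested gene of 6 related gene lists in 4 comparisons, with 1 point per gene, filled where called (blue lower, red higher), black bars at list medians and dashed lines at a log2 fold change of 1 in either direction. The points of most lists straddle 0, and the 5 small leucine-rich proteoglycans are all called lower in SN against UN.

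Whether sorted and unsorted cells responded differently to hypoxia was tested directly as (SH - SN) - (UH - UN). Of the 9 markers, 4 were called, 2 in each direction, where 10.3% of all genes were called in either direction. The response was more positive in sorted cells for Cnn1, at 1.54, and Des, at 1.76. It was more negative for Acta2, at -3.08 (SE 0.89, adjusted p = 0.03, limma), and for Pdgfrb, at -1.29 (SE 0.41, adjusted p = 0.0415). Without UN replicate 1, 7 of the 9 were called, where 14.5% of all genes were. The values were then -3.86 for Acta2 (adjusted p = 0.00231), -2.52 for Tagln (adjusted p = 0.000287), -1.72 for Pdgfrb (adjusted p = 0.000176), -1.59 for Dcn (adjusted p = 0.00166) and 1.65 for Pdgfra (adjusted p = 0.0041). With all libraries those of Tagln, Dcn and Pdgfra were -1.81, -0.91 and 1.28, at an adjusted p of 0.0696, 0.313 and 0.051. The pseudocount of 1 compresses the low Pdgfra values of sorted cells, so its difference on this scale does not show unlike relative falls. The ratio of Pdgfra means was 0.201 for UH to UN, or 0.165 without UN replicate 1, and 0.198 for SH to SN. The calls of Acta2 and Pdgfrb were each lost in 10 of 12 fits that left out a single library, with an adjusted p of up to 0.0778 for Acta2 and 0.104 for Pdgfrb. Acta2 stayed called without UN replicate 1 or SH replicate 3, and Pdgfrb without UN replicate 1 or UH replicate 1. Those of Cnn1 and Des were kept in all 12, although with quantile normalization Cnn1 was at 0.98 and was not called.

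**Figure D4:**
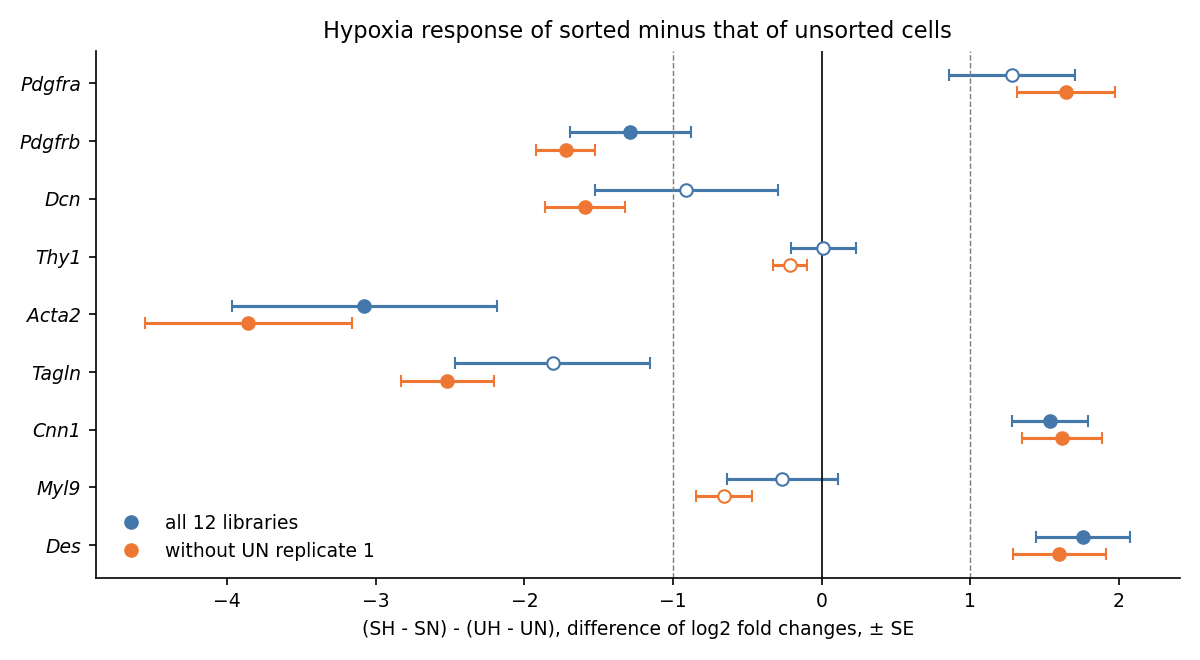
Hypoxia response of sorted cells minus that of unsorted cells for the 9 markers tested, as a difference of log2 fold changes with its standard error, from all 12 libraries (blue) and without UN replicate 1 (orange), with filled points for called genes and dashed lines at 1 in either direction. Leaving out UN replicate 1 moves the negative values further from 0, from -1.81 to -2.52 for Tagln and from -0.91 to -1.59 for Dcn, and keeps Cnn1 and Des above 1.

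The order of the group means sorted the markers into a few patterns. Pdgfra and Acta2 fell in the order UN, UH, SN and SH, and Tagln and Myl9 in the order UH, UN, SN and SH. Pdgfrb and Dcn followed UN, SN, UH and SH, with both normoxic groups above both hypoxic ones. Cnn1 followed UN, UH, SH and SN, and Des the reverse of Pdgfra. The neighbors that overlapped in these orders were UN and UH for Acta2, Tagln and Myl9, UN and SN for Pdgfrb and Dcn, SN and SH for Tagln, and UH with both UN and SN for Des. Without UN replicate 1, Acta2 took the order of Tagln and Myl9, and SN came first for both Pdgfrb and Dcn. Pearson's r of log2(TPM + 1) over the 12 libraries, which mostly restates the 4 groups, was 0.963 for Pdgfrb with Dcn, 0.966 for Tagln with Myl9 and 0.944 for Pdgfra with Cnn1. It was 0.182 for Pdgfrb with Cnn1, and Des gave negative values with every other marker above 1 TPM on average, from -0.873 with Acta2 to -0.596 with Cnn1.

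Within groups, how the markers moved together depended on UN replicate 1. After each library was expressed as its difference from its group mean, Pearson's r over the 12 libraries was 0.452 to 0.907 for the 10 pairs among Acta2, Tagln, Myl9, Dcn and Pdgfrb, with a median of 0.811. Without UN replicate 1 those pairs ran from -0.913 to 0.767, with a median of -0.007. Over all 36 pairs of the 9 markers the median was 0.41, and -0.054 without that library. The 5 genes were picked out after their values in UN replicate 1 were seen. Some pairs had a high r without that library, as it was 0.924 for Pdgfra with Pdgfrb, against -0.473 with it, 0.767 for Acta2 with Tagln and 0.762 for Dcn with Des. In SH replicate 3 Acta2 was 1.41 above its group mean, Tagln 0.38 above, Cnn1 0.42 below, Des 0.45 below and Dcn 0.46 below. These values share libraries and their depth, and no p is given for them.

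**Figure D5:**
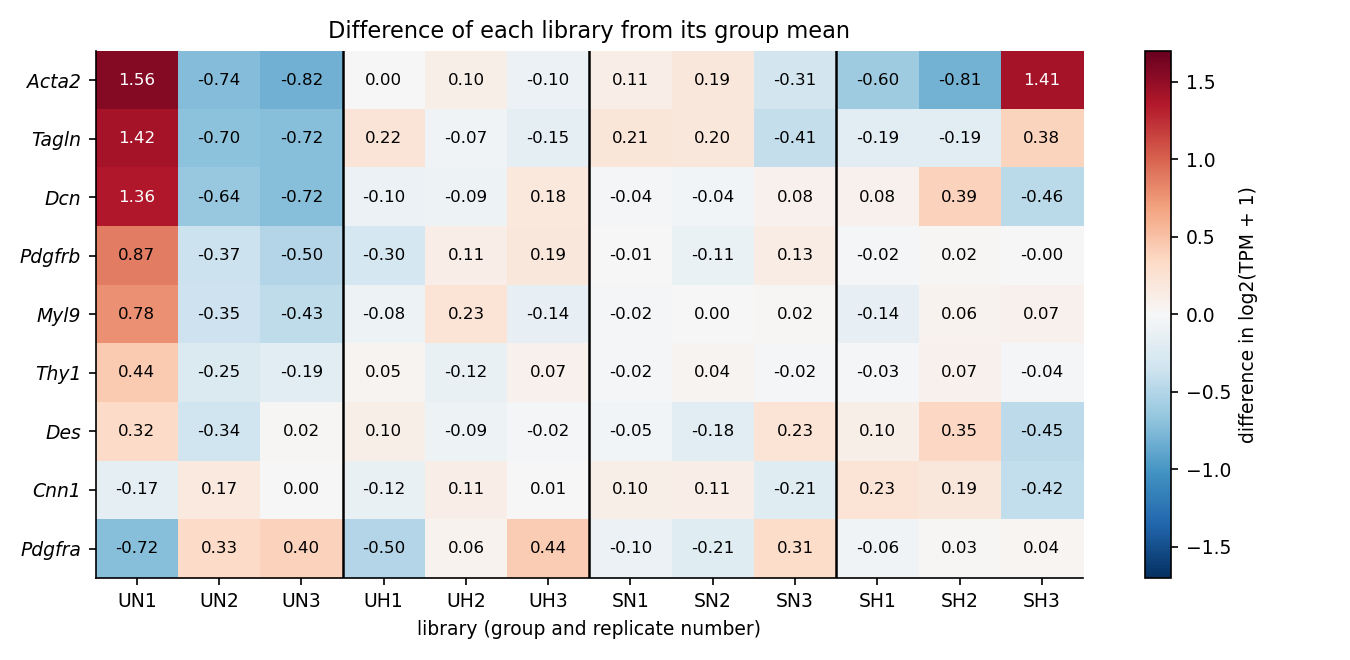
Difference of each library from the mean of its group in log2(TPM + 1) for the 9 markers tested, with libraries as columns, group borders as black lines, red above and blue below the group mean, and the value printed in each cell. UN replicate 1 is red from Acta2, at 1.56, to Myl9, at 0.78, and blue for Pdgfra, at -0.72, and SH replicate 3 is red for Acta2, at 1.41.

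Among 13567 genes whose mean TPM reached 1, those whose log2(TPM + 1) most resembled a marker over the 12 libraries differed from marker to marker. Nearest to Myl9 were Nsg1, Nes and Gpr176, with r of 0.998, 0.996 and 0.996. Among those nearest to Cnn1 were B4galt2 and Adra1d, with r of 0.996 and 0.994. Nearest to Pdgfra were Lgi2, Sfrp1 and Armcx4, with r of 0.996, 0.994 and 0.994, Sfrp1 being a secreted Wnt antagonist. Nearest to Tagln were Bgn, Rhoj and Prrx1, with r of 0.992, 0.99 and 0.99, of which Prrx1 is a mesenchymal transcription factor. Nearest to Acta2 were Nnmt, Anxa3 and Nbn, with r of 0.98, 0.969 and 0.969. Nearest to Dcn were Pnp, Lgals9 and Pdgfrb, with r of 0.972, 0.965 and 0.963, so that a marker was among the nearest genes of another in this 1 case. Nearest to Pdgfrb were Ctsc, Olfml2b and Fads1, with r of 0.978, 0.977 and 0.972, and nearest to Des were Hmcn2, Ido1 and Ydjc, with r of 0.983, 0.98 and 0.978. For Thy1, close to 0 in most libraries, the highest r was 0.926, with Fam26e. These are descriptions over libraries that fall into 4 groups.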

How the data were processed

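RNA-seq libraries were made from polyadenylated RNA with a stranded kit and sequenced in pairs. The authors ran nf-core/rnaseq 3.12.0, the labels name mm10, and the deposited table holds TPM per gene from Salmon, so no count model was run. The annotation release is not given in the sources used here, and 98.8% of identifiers were found in GENCODE M21. Groups follow the treatment named in each label. All 12 libraries were fitted in limma 3.58.1 (R 4.3.3) on log2(TPM + 1) with 4 group means, empirical Bayes moderation and a trend, two-sided, for 4 comparisons and the difference of hypoxia responses, and the fit was tested on simulated data. Tables and figures used Python 3.11.15, pandas 2.3.3 and matplotlib 3.10.9. The markers and related lists were chosen with earlier results of these data known. Genes named were the 10 markers, Tek, Cdkn2a, up to 3 called genes per list and comparison with the largest change, and the 3 genes nearest each marker (for Thy1 the nearest alone), of which 1 near Cnn1 is not reported here; the other actins, Vim, Pdgfa, Krt18 and marker genes of other cells are given beside results and were named after their values were seen. The related lists were refitted without UN replicate 1 after the data were seen. Alternatives were leaving out each library, a replicate block, quantile normalization, scaling by median of ratios, a pseudocount of 0.1, a filter set at 1 or left out, moderation with no trend and fitting only the groups compared.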

Additional observations from a re-analysis of the deposited data

Results flagged for a closer look

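For 4 of the 9 markers tested the hypoxia responses of sorted and unsorted cells differed in the interaction term, (SH - SN) - (UH - UN), fitted in limma. Of all genes 10.3% were called in it. The differences of log2 fold changes were 1.54 for Cnn1 (adjusted p = 0.00196), 1.76 for Des (adjusted p = 0.00301), -1.29 for Pdgfrb (adjusted p = 0.0415) and -3.08 for Acta2 (adjusted p = 0.03). The calls of Acta2 and Pdgfrb were each lost in 10 of the 12 fits that left out a library and without a filter on low values (adjusted p = 0.0569 and 0.0703), and that of Pdgfrb also with a replicate block (adjusted p = 0.0612). Those of Cnn1 and Des were kept in all 12, while that of Cnn1 was lost with quantile normalization, at 0.98. For Cnn1 all 3 UH libraries lay below UN and all 3 SH libraries above SN. For Des all 3 SH libraries lay above SN, and UH and UN overlapped. For Pdgfrb both hypoxic groups lay below their normoxic groups. For Acta2 all 3 SH libraries lay below SN, and UH and UN overlapped through UN replicate 1.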

How the results depend on the processing

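The number of markers called was within 1.5 times that of the fit reported here in 162 of 179 recounts under other settings. In UH against UN 0 were called higher when only the groups compared were fitted, and 0 to 1 when a library was left out. The number called lower there was 1 to 3 when a library was left out, with 1 without UN replicate 1. In SH against SN 2 were called higher with a pseudocount of 0.1, and 1 to 2 when a library was left out, 2 without SH replicate 3. For the difference of hypoxia responses 2 were called without a filter, and 2 to 7 when a library was left out. Directions turned for small values only. When a library was left out, Acta2 in UH against UN ran from -0.32 to 0.87, Thy1 from -0.073 to 0.274 and Myl9 from -0.10 to 0.51, Pdgfrb in SN against UN from -0.14 to 0.54, Dcn from -0.54 to 0.50, and the Thy1 response difference from -0.21 to 0.14. The Thy1 response difference was also -0.118 with a pseudocount of 0.1, -0.045 with median-of-ratios scaling and -0.09 with quantile normalization, which gave -0.004 for Thy1 in SH against SN. The cause of these turns was not tested.

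Median-of-ratios scaling moved the median of all genes in UH against UN from -0.19 to 0 and raised the markers there by 0.05 to 0.36, and it moved that of SH against UH from 0.17 to 0.03 and lowered the markers by 0.04 to 0.22. With a replicate block all 9 counts of called markers held, while the response difference of Pdgfra became a call (adjusted p = 0.0221) and that of Pdgfrb was lost (adjusted p = 0.0612). Same-numbered libraries of different groups correlated between -0.116 and 0.141 in their deviations, so the numbers were not taken as pairs. Without read counts, low values such as those of Lum and Thy1 cannot be given a counting error.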
